A study of Homo sapiens with 8 samples.

Results

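The genes described are 40 human genes of DNA synthesis and the replication fork, taken by symbol from a list of fork, polymerase, nucleotide supply, S-phase chromatin and repair genes. All 40 were found among the 25369 genes of the count table, and all 40 were among the 15879 with enough reads to be tested. They were followed in CHP212, a human neuroblastoma cell line, by sequencing of poly(A) RNA. The 4 groups were FAM193A knockout (KO) cells given Nutlin-3a, KO cells given DMSO, WT cells given Nutlin-3a and WT cells given DMSO, with 2 independent biological replicates each. Nutlin-3a was used at 10 uM and the vehicle DMSO at 0.2%, both for 12 h. Nutlin-3a blocks the binding of the ubiquitin ligase MDM2 to p53 and thereby stabilises p53. The labels name 1 KO population, of unstated edit and clonality, so loss of FAM193A and any other property of that population cannot be told apart. FAM193A transcript itself was still read in KO cells, at 40.1 ± 2.76 CPM under Nutlin-3a and 33.5 ± 1.84 CPM under DMSO, against 47.4 ± 4.17 CPM under Nutlin-3a and 42.0 ± 2.95 CPM under DMSO in WT cells (mean ± SD, n = 2). CPM are read counts scaled to library size.

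A replication fork is opened by a helicase made of the MCM ring, CDC45 and the GINS complex. Primase and polymerase alpha lay down primers, the clamp loader closes the sliding clamp PCNA around DNA, and polymerases epsilon and delta extend the strands while RPA coats the single-stranded template. FEN1 and LIG1 trim and join the lagging-strand pieces, and ribonucleotide reductase, thymidylate synthase and thymidine kinase supply the nucleotides. Many of these genes are transcribed mainly around the entry into S phase under E2F transcription factors, and activated p53, through p21 and the RB family, is known to hold such genes down.

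Promoter sequence was searched for E2F words because the genes share this known regulation. RefSeq (GRCh38.p14) promoter windows, 250 bases before to 50 bases after an annotated start, were at hand for 35 of the 40 genes. The 4 words TTTCCCGC, TTTCGCGC, TTTGCCGC and TTTGGCGC, read on both strands, occurred in at least 1 window of 16 of the 35 genes (45.7%), against 6.23% of the 11210 tested genes that have a window. Of the 17 matches, 3 shared bases with a GC box (GGGCGG), a word found in 80% of the 35 genes and 74.8% of the tested ones. CCAAT occurred in 57.1% of the 35 genes and 42.5% of the tested genes, and TTTGAA, the core of the CHR element of later cell cycle genes, in 5.71% and 14.1%. A match is a run of letters and not a measured binding site. The windows below, printed with any E2F word in capitals, are those of a pair of genes that fell far (CLSPN and UNG), a pair that hardly moved (LIG1 and PCNA), and PRIM1, which fell far in WT cells and has no match.
CLSPN, chr1:35769929-35770228, minus strand: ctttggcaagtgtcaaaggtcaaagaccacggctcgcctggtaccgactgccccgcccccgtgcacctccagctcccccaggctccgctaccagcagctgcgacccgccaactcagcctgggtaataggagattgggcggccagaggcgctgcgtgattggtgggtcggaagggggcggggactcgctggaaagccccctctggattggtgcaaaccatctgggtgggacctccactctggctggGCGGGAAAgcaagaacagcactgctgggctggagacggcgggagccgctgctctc
UNG, chr12:109097922-109098221, plus strand, one of its windows: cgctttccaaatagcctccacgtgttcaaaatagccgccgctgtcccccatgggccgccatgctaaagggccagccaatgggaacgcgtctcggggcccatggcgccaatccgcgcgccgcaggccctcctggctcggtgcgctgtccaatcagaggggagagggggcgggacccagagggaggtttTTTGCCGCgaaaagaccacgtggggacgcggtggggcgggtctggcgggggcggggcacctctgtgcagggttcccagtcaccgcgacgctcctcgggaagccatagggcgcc
LIG1, chr19:48170295-48170594, minus strand: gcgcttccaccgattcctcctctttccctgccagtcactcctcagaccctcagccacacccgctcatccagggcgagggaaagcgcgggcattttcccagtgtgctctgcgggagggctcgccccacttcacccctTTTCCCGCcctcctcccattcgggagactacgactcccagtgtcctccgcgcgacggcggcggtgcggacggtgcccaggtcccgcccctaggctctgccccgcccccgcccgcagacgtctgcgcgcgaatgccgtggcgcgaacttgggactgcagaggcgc
PCNA, chr20:5126573-5126872, minus strand, one of its windows: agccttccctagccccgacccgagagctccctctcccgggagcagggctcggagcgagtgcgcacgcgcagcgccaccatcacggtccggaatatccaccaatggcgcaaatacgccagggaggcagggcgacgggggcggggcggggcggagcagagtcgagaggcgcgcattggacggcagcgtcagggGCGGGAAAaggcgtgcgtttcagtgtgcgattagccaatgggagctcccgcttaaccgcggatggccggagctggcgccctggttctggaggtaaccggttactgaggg
PRIM1, chr12:56752274-56752573, minus strand: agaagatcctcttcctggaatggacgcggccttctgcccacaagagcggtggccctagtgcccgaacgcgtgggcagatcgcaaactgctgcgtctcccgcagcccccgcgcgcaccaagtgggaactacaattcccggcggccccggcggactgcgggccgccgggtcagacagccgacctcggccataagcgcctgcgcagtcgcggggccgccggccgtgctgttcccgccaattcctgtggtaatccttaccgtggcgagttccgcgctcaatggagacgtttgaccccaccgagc
Each window runs 5′ to 3′ along the strand of its gene. In KO cells the median log2 fold change was -1.03 over the 16 genes with a match and -1.08 over the 19 without, and in WT cells it was -1.94 and -2.05. LIG1, with a match, was the highest of all in both genotypes, and CLSPN, with a match too, the lowest.

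Library totals ran from 28390405 to 38010075 reads, and the lowest count of any of the 40 genes in any library was 69 reads. In 3 libraries (KO Nutlin-3a replicate 2, WT Nutlin-3a replicate 1 and WT DMSO replicate 2) 11 to 18 genes had at least 20 reads and none in the other replicate, against 0 or 1 such gene in the remaining libraries. Values that change without these 3 libraries are given beside the result. The 8 neuroblastoma markers read do not test the identity of the line. Of these HAND2, GATA3 and MYCN had at least 1732 reads in every library, while others differed by genotype. DBH had 928 to 1311 reads in the KO libraries and 10 to 26 in the WT libraries, and PHOX2A 1627 to 2415 in KO and 219 to 381 in WT libraries. TH went the other way, with 347 to 455 reads in the KO libraries and 6344 to 14512 in the WT libraries. ISL1 had 162 to 239 in KO and 236 to 467 in WT libraries. Of 13 markers of other lineages CD3E had 0 reads in all libraries. Their summed level was 4713 to 5014 CPM in KO Nutlin-3a, 3895 to 4154 CPM in KO DMSO, 4351 to 4366 CPM in WT Nutlin-3a and 3413 to 3498 CPM in WT DMSO libraries, nearly all of it from COL1A1 and PDGFRB. The other 11 had 0 to 231 reads each per library. The part of these markers in the results was not tested. CDKN1A, the p21 gene and a direct p53 target, stood at 1683 ± 41.6 CPM in KO Nutlin-3a and 48.3 ± 0.32 CPM in KO DMSO cells, and at 3032 ± 131 CPM in WT Nutlin-3a and 72.4 ± 0.80 CPM in WT DMSO cells (n = 2).

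Together the 40 genes lost much of their RNA under Nutlin-3a in both genotypes, and more in WT than in KO cells. Their summed level was 2075 ± 34.04 CPM under Nutlin-3a and 3794 ± 25.9 CPM under DMSO in KO cells, so that 54.7% was kept. In WT cells it was 1613 ± 35.4 CPM under Nutlin-3a and 4636 ± 32.0 CPM under DMSO, with 34.8% kept (SD, n = 2). The KO cells therefore started from a lower sum and ended at a higher one. Over single genes the median share kept was 49.1% in KO cells, from 23.1% for CLSPN to 119% for LIG1. In WT cells it was 26.9%, from 8.07% for CLSPN to 101.3% for LIG1. In bulk RNA, fewer cells in S phase and less RNA per cell cannot be told apart.

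**Figure D1:**
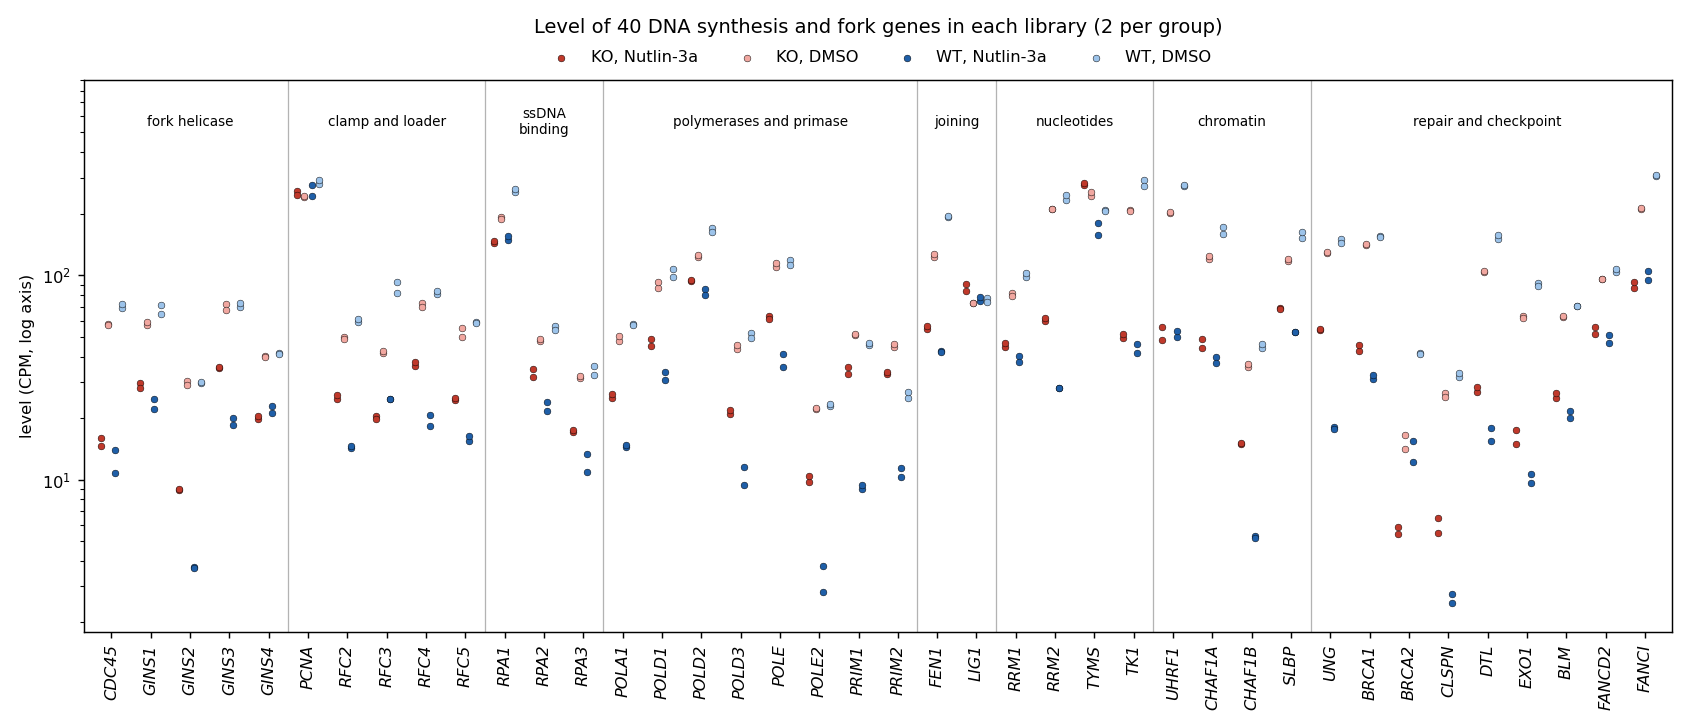
Level of each of the 40 genes in every library, in CPM on a log axis, with genes grouped by role and 2 points per group. Nutlin-3a points lie below the DMSO points of their genotype for most genes. PCNA, LIG1 and TYMS are the exceptions in KO cells, where they stand at or above their DMSO level.

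In WT cells 39 of the 40 genes fell under Nutlin-3a, none rose and LIG1 was not called (edgeR quasi-likelihood test, Benjamini-Hochberg adjusted p under 0.05). Over all tested genes 29.2% were called lower and 29.4% higher. Of the 39, 35 fell by more than 2-fold, a change seen in 5.77% of tested genes. The median log2 fold change was -1.89, beside 0.017 over all tested genes. The libraries of the WT groups did not overlap for 39 genes, as for 76.2% of all tested genes. The largest falls were those of CLSPN (-3.63), DTL (-3.20), EXO1 (-3.15), CHAF1B (-3.10), RRM2 (-3.09), UNG (-3.04) and GINS2 (-3.003), with SE from 0.05 to 0.11.

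In KO cells, 37 of the 40 genes fell, LIG1 and TYMS rose, and PCNA was not called. Over all tested genes 20.6% were called lower and 18.1% higher. Of the 37, 21 fell by more than 2-fold, beside 1.46% of tested genes. The median was -1.03, beside -0.0057 over all tested genes, and no gene had overlapping KO groups (71.5% of tested genes did not overlap). CLSPN (-2.11), TK1 (-2.04), UHRF1 (-1.97), EXO1 (-1.94), DTL (-1.92) and CDC45 (-1.91) fell most. All 37 genes that fell in KO cells also fell in WT cells, as 17.1% of tested genes did in both. All 21 that fell by more than 2-fold in KO cells did so in WT cells too, beside 1.17% of tested genes, and 14 more did so in WT cells alone, beside 4.6%.

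The difference of the responses, KO minus WT on the log2 scale, was above 0 and called for 37 of the 40 genes and called below 0 for none. Over all tested genes 14.2% were called above and 13.4% below 0. A value above 0 here means a smaller fall, or a rise, in KO cells. The median difference was 0.74, beside -0.0032 over all tested genes, and 14 genes differed by more than 1 log2 unit (1.59% of tested genes). Those 14 were CHAF1B, UNG, PRIM1, POLE2, CLSPN, RRM2, DTL, GINS2, POLD3, EXO1, RFC4, RFC2, POLA1 and FEN1, from 1.84 for CHAF1B to 1.02 for FEN1. GINS4 (-0.08), BRCA2 (0.14) and PCNA (0.19) were not called. The KO and WT responses, which share no library, ran in parallel over the 40 genes (Pearson r = 0.86, Spearman rho = 0.82, across genes that are not independent replicates). The KO response was a median 0.57 of the WT one on the log2 scale over the 39 genes called in WT cells.

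**Figure D2:**
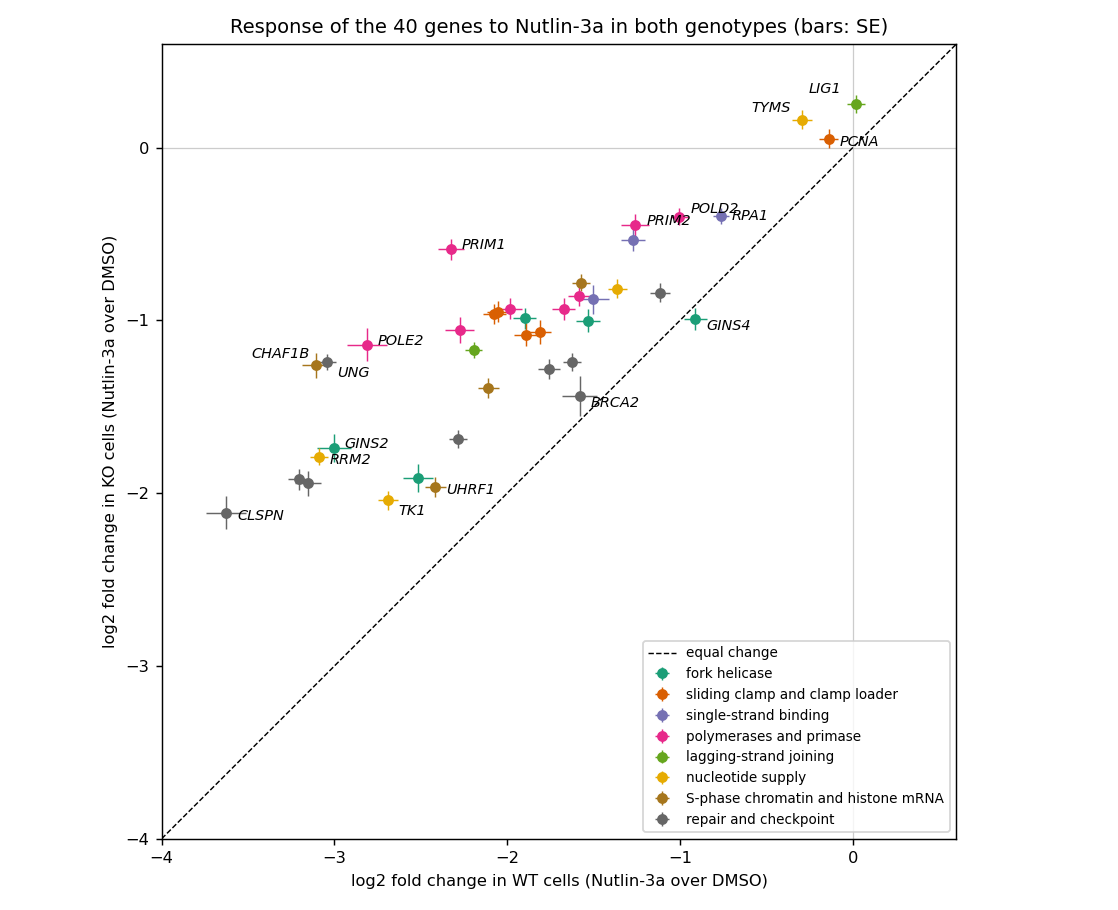
Log2 fold change under Nutlin-3a in KO cells (vertical axis) against that in WT cells (horizontal axis) for each of the 40 genes, with SE bars and a dashed line of equal change. Nearly all points lie above the line, PRIM1, UNG and CHAF1B far above it, GINS4 slightly below it and BRCA2 near it.

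The fork helicase genes fell in both genotypes, all 5 of them. They kept 26.6% to 50.4% of their DMSO level in KO cells and 12.5% to 53.2% in WT cells. GINS2, one of the 4 subunits of GINS, had in KO cells 8.85 and 8.98 CPM under Nutlin-3a and 30.3 and 29.1 CPM under DMSO, and in WT cells 3.72 and 3.70 CPM under Nutlin-3a and 29.7 and 29.9 CPM under DMSO. Both WT Nutlin-3a libraries were lowest and the DMSO libraries of the genotypes overlapped. The change was -1.74 (SE 0.08, adjusted p = 3.72e-12) in KO and -3.003 (SE 0.10, adjusted p = 6.81e-15) in WT cells, and differed by 1.27 (SE 0.13, adjusted p = 1.25e-06). GINS4, its partner in the same complex, had in KO cells 19.9 and 20.5 CPM under Nutlin-3a and 40.3 and 40.001 CPM under DMSO, and in WT cells 21.2 and 22.8 CPM under Nutlin-3a and 41.5 and 41.2 CPM under DMSO. Here the KO and WT values lay side by side in each treatment, and the responses of -0.99 in KO and -0.91 in WT cells differed by -0.08 (95% interval -0.28 to 0.12). CDC45, which joins GINS and MCM in the helicase, fell by 1.91 in KO and 2.52 in WT cells. GINS1 changed by -1.0004 in KO and -1.53 in WT cells and GINS3 by -0.99 in KO and -1.90 in WT cells.

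Among the clamp and clamp loader genes, the 4 loader subunits fell in both genotypes and the clamp gene stood apart. RFC4, a small loader subunit, had in KO cells 35.98 and 37.6 CPM under Nutlin-3a and 73.5 and 69.9 CPM under DMSO, and in WT cells 20.6 and 18.3 CPM under Nutlin-3a and 80.6 and 83.7 CPM under DMSO. The Nutlin-3a libraries were below the DMSO ones in each genotype, and both KO Nutlin-3a libraries were above both WT ones. RFC4 changed by -0.96 (SE 0.06, adjusted p = 2.38e-10) in KO and -2.07 (SE 0.07, adjusted p = 5.65e-15) in WT cells. The other loader subunits RFC2, RFC3 and RFC5 changed by -0.95, -1.07 and -1.08 in KO cells and by -2.05, -1.81 and -1.89 in WT cells. PCNA, the clamp that tethers polymerases to DNA and a gene that p53 can also bind, had in KO cells 257 and 246 CPM under Nutlin-3a and 242 and 244 CPM under DMSO, and in WT cells 275 and 244 CPM under Nutlin-3a and 279 and 293 CPM under DMSO. Its groups lay close together, with the WT DMSO libraries highest. The change was 0.05 (SE 0.05, adjusted p = 0.475) in KO and -0.14 (SE 0.05, adjusted p = 0.0317) in WT cells. That WT call was lost without either WT DMSO library, WT Nutlin-3a replicate 2 or either KO DMSO library, and under limma-trend, upper-quartile scaling or a 4-library fit (adjusted p between 0.0533 and 0.235). In KO cells PCNA passed as a rise of 0.10 (adjusted p = 0.0199) once the 3 libraries named above were left out. The difference of the responses, 0.19 (SE 0.08, adjusted p = 0.0669), passed without WT Nutlin-3a replicate 1 (0.27, adjusted p = 0.000199), without the 3 libraries (0.26, adjusted p = 2.71e-05) and with no low-count filter (0.18, adjusted p = 0.0446).

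The RPA genes, whose products form the heterotrimer that coats single-stranded DNA, fell in both genotypes, all 3 of them. They kept 54.4% to 75.9% in KO and 35.2% to 59.0% in WT cells. RPA3, the smallest subunit, had in KO cells 17.02 and 17.4 CPM under Nutlin-3a and 31.3 and 32.01 CPM under DMSO, and in WT cells 13.3 and 10.9 CPM under Nutlin-3a and 32.7 and 35.8 CPM under DMSO. RPA1, the large DNA-binding subunit, had in KO cells 143 and 147 CPM under Nutlin-3a and 193 and 189 CPM under DMSO, and in WT cells 149 and 156 CPM under Nutlin-3a and 254 and 263 CPM under DMSO. For RPA1 the Nutlin-3a libraries of both genotypes lay between 143 and 156 CPM, while the WT DMSO libraries were well above the KO DMSO ones. RPA1 changed by -0.40 (SE 0.05, adjusted p = 1.16e-06) in KO and -0.76 (SE 0.05, adjusted p = 5.30e-11) in WT cells. RPA3 changed by -0.88 (SE 0.08, adjusted p = 9.77e-08) and -1.50 (SE 0.09, adjusted p = 5.34e-11), and RPA2 by -0.54 in KO and -1.27 in WT cells.

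The polymerase and primase genes fell by more than 2-fold in all 8 cases in WT cells and in 2 of 8 cases in KO cells, and all 8 differences of the responses were called. POLE2, an accessory subunit of polymerase epsilon, had in KO cells 9.75 and 10.5 CPM under Nutlin-3a and 22.1 and 22.4 CPM under DMSO, and in WT cells 3.76 and 2.80 CPM under Nutlin-3a and 22.9 and 23.4 CPM under DMSO. The DMSO libraries of the genotypes lay close together, and the WT Nutlin-3a libraries were the lowest by a wide margin. POLE2 changed by -1.14 (SE 0.10, adjusted p = 1.75e-08) in KO and -2.81 (SE 0.12, adjusted p = 2.92e-13) in WT cells, a difference of 1.67 (SE 0.16, adjusted p = 3.59e-07). POLE, the catalytic subunit of the same enzyme, changed by -0.86 in KO and -1.59 in WT cells. POLD2, a subunit of polymerase delta, had in KO cells 93.4 and 94.5 CPM under Nutlin-3a and 123 and 125 CPM under DMSO, and in WT cells 85.9 and 80.4 CPM under Nutlin-3a and 171 and 162 CPM under DMSO. It fell least of the 8, by 0.40 in KO and 1.003 in WT cells, and had the smallest difference of the responses, 0.60 (SE 0.07, adjusted p = 3.40e-06). Its partners were POLD1, the catalytic subunit, with -0.93 in KO and -1.67 in WT cells, and POLD3, with -1.05 in KO and -2.27 in WT cells. POLA1, the catalytic subunit of polymerase alpha, changed by -0.93 in KO and -1.98 in WT cells.

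Both primase subunits stood out by their level in KO cells. PRIM1, the catalytic subunit, had in KO cells 32.8 and 35.5 CPM under Nutlin-3a and 50.9 and 51.5 CPM under DMSO, and in WT cells 8.97 and 9.38 CPM under Nutlin-3a and 45.5 and 46.5 CPM under DMSO. It fell by 0.59 (SE 0.06, adjusted p = 3.10e-07) in KO and 2.33 (SE 0.07, adjusted p = 6.44e-15) in WT cells, so 66.6% was kept in KO and 19.9% in WT cells. PRIM2, the large subunit, had in KO cells 32.9 and 33.6 CPM under Nutlin-3a and 44.6 and 45.99 CPM under DMSO, and in WT cells 10.3 and 11.4 CPM under Nutlin-3a and 24.9 and 26.9 CPM under DMSO. PRIM2 changed by -0.45 in KO and -1.26 in WT cells and was already 0.81 log2 units above its WT level in KO cells under DMSO (SE 0.07, adjusted p = 7.24e-09). All 4 KO libraries of PRIM2 exceeded all 4 WT libraries.

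The pair of lagging-strand genes parted. FEN1, the nuclease that removes primer flaps, had in KO cells 54.7 and 56.4 CPM under Nutlin-3a and 123 and 127 CPM under DMSO, and in WT cells 42.7 and 41.9 CPM under Nutlin-3a and 192 and 196 CPM under DMSO. It changed by -1.17 (SE 0.05, adjusted p = 5.57e-13) in KO and -2.19 (SE 0.05, adjusted p = 4.84e-17) in WT cells. LIG1, the ligase that seals the nicks left by FEN1, had in KO cells 90.4 and 84.02 CPM under Nutlin-3a and 73.4 and 72.9 CPM under DMSO, and in WT cells 75.1 and 77.8 CPM under Nutlin-3a and 76.9 and 73.98 CPM under DMSO. The 4 WT libraries and the KO DMSO libraries lay within a narrow band, and only the KO Nutlin-3a libraries rose above it. LIG1 rose by 0.25 (SE 0.05, adjusted p = 0.000626) in KO cells and stood at 0.02 (SE 0.05, adjusted p = 0.785) in WT cells. The difference, 0.24 (SE 0.07, adjusted p = 0.023), lost its call without WT DMSO replicate 1, either KO DMSO library or KO Nutlin-3a replicate 1 (adjusted p from 0.0767 to 0.129).

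Among the nucleotide supply genes 3 of 4 fell in both genotypes. RRM2, the small subunit of ribonucleotide reductase made in S phase, had in KO cells 59.8 and 61.6 CPM under Nutlin-3a and 209.8 and 209.6 CPM under DMSO, and in WT cells 27.95 and 28.2 CPM under Nutlin-3a and 232 and 246 CPM under DMSO. RRM2 changed by -1.79 (SE 0.05, adjusted p = 1.35e-15) in KO and -3.09 (SE 0.05, adjusted p = 1.05e-18) in WT cells, while RRM1, the large subunit, changed by -0.82 in KO and -1.36 in WT cells. TK1, the thymidine salvage kinase, changed by -2.04 in KO and -2.69 in WT cells. TYMS, which makes thymidylate, had in KO cells 276 and 284 CPM under Nutlin-3a and 245 and 256 CPM under DMSO, and in WT cells 181 and 157 CPM under Nutlin-3a and 209 and 206 CPM under DMSO. Its KO Nutlin-3a libraries were the highest of the 8 and its WT Nutlin-3a libraries the lowest. TYMS changed by 0.16 (SE 0.05, adjusted p = 0.0255) in KO and -0.29 (SE 0.06, adjusted p = 0.000206) in WT cells, a difference of 0.46 (SE 0.08, adjusted p = 0.000277). The rise in KO cells lost its call without any one of the 4 KO libraries or without WT DMSO replicate 2 (adjusted p from 0.0523 to 0.223). TYMS shares exons with ENOSF1 and TYMSOS on the opposite strand. ENOSF1 changed by -0.18 (not called) in KO and -0.72 in WT cells. TYMSOS, with 41 to 217 reads per library, rose by 0.95 in KO and 0.93 in WT cells. TYMSOS was also higher in KO than in WT cells, by 1.11 under Nutlin-3a and 1.10 under DMSO.

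RRM2B, outside the 40 genes, encodes a p53-induced subunit that can replace RRM2 in ribonucleotide reductase. Set per gene length in the deposited RPKM, KO Nutlin-3a libraries had 18.2 and 18.6 RPKM of RRM2 and 27.4 and 26.1 RPKM of RRM2B. KO DMSO libraries had 62.1 and 61.9 RPKM of RRM2 and 6.23 and 6.14 RPKM of RRM2B. In WT Nutlin-3a libraries RRM2 stood at 7.90 and 8.04 RPKM and RRM2B at 62.1 and 64.5 RPKM. The WT DMSO libraries held 65.8 and 69.3 RPKM of RRM2 and 7.47 and 7.23 RPKM of RRM2B. RRM2B thus made up 60.1% and 58.4% of the pair in KO Nutlin-3a and 9.12% and 9.03% in KO DMSO libraries, and 88.7% and 88.9% in WT Nutlin-3a and 10.2% and 9.45% in WT DMSO libraries. RRM2B changed by 2.08 (SE 0.05, adjusted p = 3.58e-16) in KO and 3.10 (SE 0.05, adjusted p = 5.51e-19) in WT cells, a difference of -1.02 (SE 0.07, adjusted p = 9.47e-09), of opposite sign to that of RRM2, 1.30 (SE 0.07, adjusted p = 5.17e-10).

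**Figure D3:**
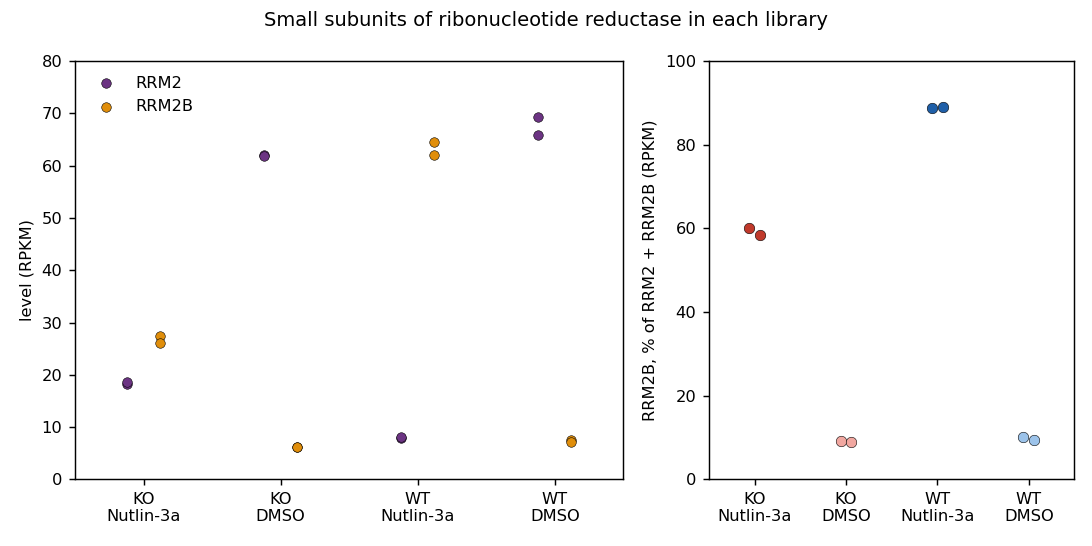
Left, RPKM of RRM2 and RRM2B in each library of the 4 groups. Right, RRM2B as a percentage of the sum of both in each library. The share is 58.4% to 60.1% in KO Nutlin-3a, 88.7% to 88.9% in WT Nutlin-3a and 9.03% to 10.2% in DMSO libraries.

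The S-phase chromatin genes all fell in both genotypes. CHAF1B, a subunit of the CAF-1 histone chaperone that loads histones behind the fork, had in KO cells 15.02 and 15.1 CPM under Nutlin-3a and 35.4 and 36.6 CPM under DMSO, and in WT cells 5.27 and 5.18 CPM under Nutlin-3a and 44.001 and 45.96 CPM under DMSO. The KO Nutlin-3a libraries lay well above the WT ones, whereas the KO DMSO libraries lay below the WT DMSO ones. CHAF1B changed by -1.26 (SE 0.07, adjusted p = 4.59e-11) in KO and -3.10 (SE 0.08, adjusted p = 5.33e-16) in WT cells, the largest difference of the 40 genes at 1.84 (SE 0.11, adjusted p = 2.30e-09). CHAF1A, the large CAF-1 subunit, changed by -1.39 in KO and -2.11 in WT cells. UHRF1, which brings the maintenance methyltransferase to replicated DNA, changed by -1.97 in KO and -2.41 in WT cells. SLBP, which binds the stem-loop of histone mRNA, had in KO cells 69.4 and 67.97 CPM under Nutlin-3a and 117 and 119.6 CPM under DMSO, and in WT cells 52.8 and 52.9 CPM under Nutlin-3a and 152 and 163 CPM under DMSO. It changed least of the 4, by -0.78 in KO and -1.57 in WT cells.

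The repair and checkpoint genes included the deepest falls and 8 of the 9 fell by more than 2-fold even in KO cells. CLSPN, the adaptor that lets ATR activate CHK1 at stalled forks, had in KO cells 6.49 and 5.50 CPM under Nutlin-3a and 26.5 and 25.5 CPM under DMSO, and in WT cells 2.77 and 2.48 CPM under Nutlin-3a and 31.7 and 33.4 CPM under DMSO. No other gene of the 40 kept so little in either genotype. It changed by -2.11 (SE 0.10, adjusted p = 2.72e-12) in KO and -3.63 (SE 0.11, adjusted p = 4.86e-15) in WT cells. UNG, the glycosylase that removes uracil from DNA, changed by -1.24 in KO and -3.04 in WT cells, the next largest difference at 1.802 (SE 0.07, adjusted p = 1.25e-11). DTL, the substrate receptor of a PCNA-coupled ubiquitin ligase, changed by -1.92 in KO and -3.20 in WT cells, and the exonuclease gene EXO1 by -1.94 in KO and -3.15 in WT cells. BRCA1, needed for homologous recombination, changed by -1.68 in KO and -2.28 in WT cells, and the helicase gene BLM by -1.28 in KO and -1.76 in WT cells. FANCD2, which is ubiquitinated with FANCI at crosslinks, had in KO cells 51.3 and 55.8 CPM under Nutlin-3a and 95.5 and 96.1 CPM under DMSO, and in WT cells 50.7 and 46.4 CPM under Nutlin-3a and 104 and 107 CPM under DMSO. It fell least of the 9, by 0.84 in KO and 1.12 in WT cells, and its difference of 0.27 (SE 0.08, adjusted p = 0.0148) lost its call without WT DMSO replicate 2, either KO DMSO library or KO Nutlin-3a replicate 2 (adjusted p from 0.0572 to 0.104). FANCI changed by -1.24 in KO and -1.62 in WT cells.

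BRCA2, a mediator of homologous recombination, was the one gene of the 40 more than 2-fold lower in KO cells under both treatments. It had in KO cells 5.86 and 5.44 CPM under Nutlin-3a and 14.1 and 16.5 CPM under DMSO, and in WT cells 15.5 and 12.2 CPM under Nutlin-3a and 41.7 and 41.2 CPM under DMSO. Its WT Nutlin-3a libraries were about as high as its KO DMSO libraries. BRCA2 changed by -1.44 (SE 0.12, adjusted p = 1.55e-08) in KO and -1.58 (SE 0.10, adjusted p = 1.58e-10) in WT cells, with an uncalled difference of 0.14 and a 95% interval of -0.19 to 0.47. By limma-trend on log2(RPKM + 1) that difference was 0.42 and was called (adjusted p = 0.0297).

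KO and WT cells were also compared within each treatment, in comparisons that share libraries with the responses above. Under Nutlin-3a 33 of the 40 genes were higher in KO cells, RFC3, BRCA2 and FANCI were lower, and GINS4, PCNA, RPA1 and UHRF1 were not called. Over all tested genes 32.7% were called higher and 30.4% lower, or 62.4% of the calls higher with limma-trend on log2(RPKM + 0.1) against 51.8% in the edgeR fit. The median was 0.53, and 9 genes were more than 2-fold higher (10.1% of tested genes), while BRCA2 (-1.29) was more than 2-fold lower (8.49%). The 9 were PRIM1 (1.90), PRIM2 (1.62), POLE2 (1.61), UNG (1.61), CHAF1B (1.52), GINS2 (1.26), CLSPN (1.19), RRM2 (1.11) and POLD3 (1.03). KO and WT libraries did not overlap for 38 genes, as for 79.1% of tested genes. The calls nearest the threshold depended on single libraries. CDC45, at 0.31 (SE 0.10, adjusted p = 0.0123), lost its call without WT Nutlin-3a replicate 1 (0.12, adjusted p = 0.280), without KO Nutlin-3a replicate 2 (0.24, adjusted p = 0.117), without the 3 libraries named above (0.05, adjusted p = 0.720) and in a fit of 4 libraries (0.302, adjusted p = 0.0501). FANCD2, at 0.14 (SE 0.06, adjusted p = 0.0458), lost its call when any library but WT Nutlin-3a replicate 1 or KO Nutlin-3a replicate 1 was left out (adjusted p from 0.0666 to 0.367). DESeq2 size factors or Wald test, no low-count filter, a fit of 4 libraries and leaving out the 3 libraries ended it as well (adjusted p from 0.0603 to 0.162). TK1, at 0.19, lost its call without KO Nutlin-3a replicate 2 (adjusted p = 0.0880) and without WT Nutlin-3a replicate 2 (adjusted p = 0.0832), and LIG1, at 0.19, without KO Nutlin-3a replicate 1 (adjusted p = 0.0735). FANCI, at -0.15, lost its call without KO Nutlin-3a replicate 1 or WT Nutlin-3a replicate 2 (adjusted p = 0.224 and 0.156). Its call was also lost with upper-quartile factors (-0.12, adjusted p = 0.0638), in a fit of 4 libraries (adjusted p = 0.0510) and by limma-trend, at -0.06 (adjusted p from 0.358 to 0.427). UHRF1 stood at 0.01 with all libraries and at -0.16 (adjusted p = 0.0191) without the 3 libraries, where GINS4 (-0.21) and RPA1 (-0.14) were also called lower. RPA1 was called lower too without WT Nutlin-3a replicate 1 alone (-0.11, adjusted p = 0.0324), and PCNA without WT Nutlin-3a replicate 2 alone (-0.13, adjusted p = 0.0109).

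Under DMSO the direction was the other one. In KO cells 30 of the 40 genes were lower, PRIM1, PRIM2 and TYMS were higher, and GINS2, GINS3, GINS4, RPA3, POLE, POLE2 and LIG1 were not called. Over all tested genes 30.1% were called lower and 31.4% higher. The differences were small, with a median of -0.21, and RFC3 (-1.05) and BRCA2 (-1.43) alone passed 2-fold (7.23% of tested genes). FEN1 (-0.63), DTL (-0.56), FANCI (-0.54) and EXO1 (-0.53) followed. The groups did not overlap for 37 genes, beside 82.4% of tested genes. In 24 genes, beside 2.02% of tested genes, both calls were made with opposite sign. They were higher in KO cells under Nutlin-3a and lower in KO cells under DMSO. None of the 24 changed by more than 1.5-fold in both comparisons. RFC3, BRCA2 and FANCI were lower under both treatments (20.9% of tested genes), and PRIM1, PRIM2 and TYMS higher under both (22.6%). PRIM1 under DMSO, at 0.16 (SE 0.06, adjusted p = 0.0313), lost its call without any one of the 4 DMSO libraries (adjusted p from 0.0809 to 0.153) and with DESeq2 size factors or Wald test (adjusted p = 0.0697 and 0.178). The lower calls of BLM, BRCA1, FANCD2, GINS1, POLD1, POLD3, RFC4, RFC5 and RPA2 were each lost on leaving out at least 1 single DMSO library (adjusted p from 0.0520 to 0.338). Limma-trend on log2(RPKM + 0.1) ended those 9 calls and those of CDC45 and CLSPN (adjusted p from 0.0757 to 0.357). All of these genes are among the 24 above. Over all tested genes 58.9% of the calls were higher by that fit, against 51.1% in the edgeR fit. With upper-quartile factors the calls of RFC5, POLD3, BRCA1 and FANCD2 were lost (adjusted p from 0.0603 to 0.105).

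**Figure D4:**
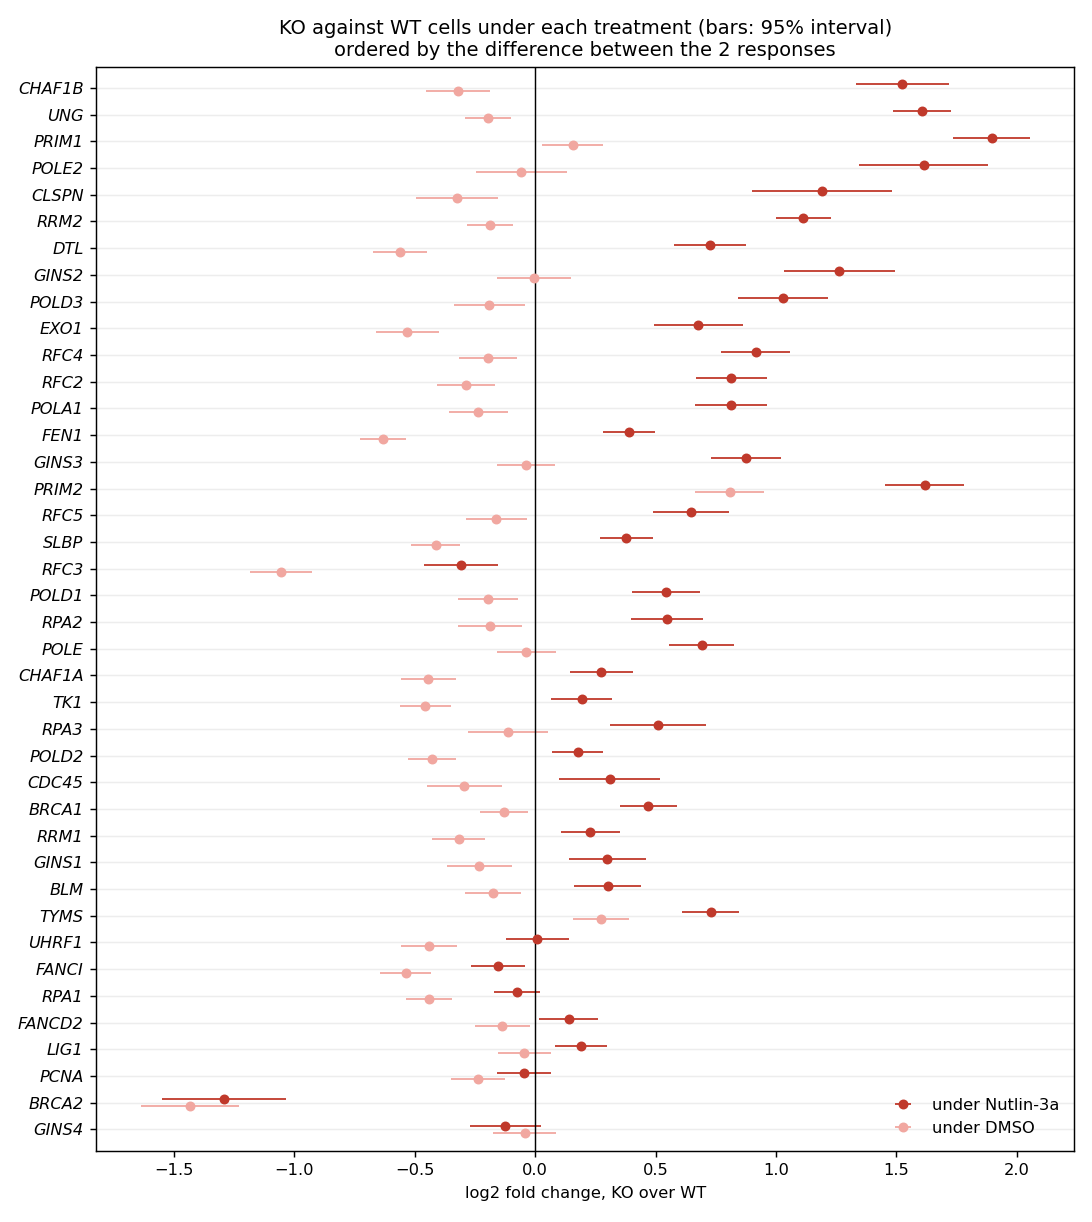
Log2 fold change of KO over WT cells for each of the 40 genes, under Nutlin-3a (dark) and under DMSO (light), with 95% intervals and genes ordered by the difference of the 2 responses. Most dark points lie above 0 and most light points below it. BRCA2 is far below 0 under both treatments and PRIM2 above it under both.

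With the levels set per gene length, the makeup of the set shifted under Nutlin-3a. PCNA, TYMS and LIG1 together held 43.0% and 41.8% of the summed RPKM of the 40 genes in KO Nutlin-3a libraries and 23.5% and 23.9% in KO DMSO libraries. In WT cells they held 47.0% and 44.4% under Nutlin-3a and 19.9% and 20.1% under DMSO. TYMS (183.8 RPKM) and PCNA (181.2 RPKM) were the most abundant of the 40 in KO Nutlin-3a cells, followed at a distance by POLD2 (42.2 RPKM). In WT DMSO cells PCNA (192.8 RPKM), TK1 (172.5 RPKM) and TYMS (127.2 RPKM) led. The lowest level was that of BRCA2 in KO cells (0.516 RPKM under Nutlin-3a and 1.37 RPKM under DMSO) and of CLSPN in WT Nutlin-3a cells (0.302 RPKM).

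Further genes of the same processes were read from further lists, 73 in all and each of them tested. Beside their calls stand the shares over all tested genes, 20.6% lower and 18.1% higher in KO cells, and 29.2% and 29.4% in WT cells. Of 22 other fork genes 19 fell and 1 rose in KO cells, and 20 fell and 1 rose in WT cells, with medians of -0.85 and -1.52. MCM10, an initiation factor, changed by -1.82 in KO and -2.90 in WT cells, WDHD1, which tethers polymerase alpha to the helicase, by -1.11 in KO and -1.93 in WT cells, and RECQL4, a helicase of initiation, by -1.20 in KO and -1.73 in WT cells. DONSON, another helicase assembly factor, changed by -0.76 in KO and -1.76 in WT cells. POLD4, the smallest polymerase delta subunit, went the other way. It had in KO cells 10.4 and 11.03 CPM under Nutlin-3a and 8.69 and 8.22 CPM under DMSO, and in WT cells 17.8 and 15.7 CPM under Nutlin-3a and 9.33 and 9.20 CPM under DMSO, a change of 0.34 (SE 0.10, adjusted p = 0.0144) in KO and 0.85 (SE 0.10, adjusted p = 9.26e-07) in WT cells. ATR, the checkpoint kinase, stood at -0.14 in KO cells, not called, and fell by 0.16 in WT cells, and its activator ETAA1 was not called in either.

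Of 11 other nucleotide supply genes 7 fell and 3 rose in KO cells, and 7 fell and 2 rose in WT cells. DUT, which removes dUTP, changed by -0.99 in KO and -1.58 in WT cells. DCTPP1, a dCTP-cleaving enzyme, changed by -0.51 in KO and -1.27 in WT cells. Besides RRM2B, the nucleoside diphosphate kinase gene NME1 rose (0.32 in KO and 0.38 in WT cells), and TK2, the mitochondrial thymidine kinase, rose in KO cells by 0.29 (SE 0.08, adjusted p = 0.00761) and stood at 0.01 in WT cells. All 9 other S-phase chromatin genes fell in both genotypes, with medians of -0.88 in KO and -1.54 in WT cells. HELLS, a chromatin remodeller of DNA methylation, changed by -1.06 in KO and -2.25 in WT cells, its partner CDCA7 by -0.88 in KO and -1.78 in WT cells, and the histone chaperone gene NASP by -0.76 in KO and -1.48 in WT cells.

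Of 19 other homologous recombination, Fanconi and mismatch repair genes 17 fell in KO and 18 in WT cells, and none rose. The mismatch repair gene MSH6 (-0.86 in KO and -2.38 in WT cells) and the BRCA1 partner genes BARD1 (-1.16 in KO and -2.69 in WT cells) and BRIP1 (-1.36 in KO and -1.94 in WT cells) were among them. The difference of the responses was 1.52 (SE 0.07, adjusted p = 8.56e-11) for MSH6 and 1.53 (SE 0.12, adjusted p = 3.88e-08) for BARD1. The 12 repair and bypass polymerase genes moved both ways. In KO cells 4 were higher and 2 lower (18.1% and 20.6% of tested genes), with a median of 0.09. In WT cells 4 were higher and 4 lower (29.4% and 29.2%), with a median of -0.03. Whether these counts differ from those shares was not tested. POLH, the polymerase that copies past ultraviolet lesions and a known p53 target, had in KO cells 166 and 161 CPM under Nutlin-3a and 53.8 and 55.1 CPM under DMSO, and in WT cells 245 and 283 CPM under Nutlin-3a and 60.9 and 55.8 CPM under DMSO. POLH rose by 1.59 (SE 0.06, adjusted p = 3.43e-12) in KO and 2.18 (SE 0.06, adjusted p = 2.27e-14) in WT cells. POLL, a gap-filling polymerase, rose by 0.35 in KO and 0.89 in WT cells, POLM, of end joining, by 0.32 in KO and 0.24 in WT cells, and REV3L, the catalytic subunit of polymerase zeta, by 0.62 in KO and 1.005 in WT cells. POLQ, of alternative end joining, fell instead (-1.22 in KO and -1.85 in WT cells), as did PRIMPOL, a second primase (-0.34 in KO and -0.95 in WT cells).

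In a GENCODE annotation on another build than the files, matched by gene name, exons of 11 of the 40 genes overlap those of another gene in the count table. Among them are PRIM1 with NACA and CHAF1B with MORC3 on the same strand, and RFC4 with EIF4A2 and GINS2 with GSE1 on the opposite strand. The 11 have 14 such partners. In KO cells 4 of the partners rose, 3 fell and 7 were not called, beside 18.1% higher and 20.6% lower of all tested genes. In WT cells 5 rose, 6 fell and 3 were not called, beside 29.4% and 29.2%. FADS2, on the strand of FEN1, changed by -0.48 in KO and -0.97 in WT cells, SMYD4, opposite RPA1, by -0.36 in KO and -0.71 in WT cells, and POLG, opposite FANCI, by -0.26 in KO and -0.35 in WT cells, so these 3 fell in both genotypes, as did the genes they overlap. NACA changed by 0.14 in KO and 0.21 in WT cells, MORC3 by -0.14 in KO and 0.15 in WT cells (not called in either), EIF4A2 by 0.19 in KO and 0.35 in WT cells and GSE1 by 0.44 in KO and 0.57 in WT cells. In addition 10 of the 40, some of them among the 11, have pseudogenes named after them, including PCNA, RRM2, TYMS, UNG and FEN1. Reads shared with those copies or partners cannot be assigned here.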

How the data were processed

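Poly(A) RNA was sequenced from 8 CHP212 libraries in 4 groups of 2 biological replicates, with strand-specific TruSeq libraries, per the labels' protocols. TopHat2 2.1.1, Bowtie2 2.2.9.0, HTSeq 0.8.0 and the build GRCh37 are named in the submitters' processing notes. Which annotation was counted, and with which strand setting, is not stated. The authors deposited whole read counts per gene and, in a second table, RPKM values (counts scaled to gene length and total reads). Promoter windows came from RefSeq on another build, so no coordinates of the files are given. Overlapping genes and pseudogenes came from GENCODE, also on another build, and were matched to the count table by name. They may differ from the gene models that were counted.

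One model of the 4 group means was fitted to the counts of all 8 libraries with edgeR 4.0.16 under R 4.3.3 (filterByExpr, TMM, robust quasi-likelihood test). Of 25369 genes 15879 were tested, and p values were adjusted over all of them (Benjamini-Hochberg, threshold 0.05). The edgeR step was run on counts simulated from its own fit, with a small set of genes raised in the WT Nutlin-3a group alone. That setting lacks the falls and the wide changes of these data, so it does not test the scaling used here. CPM use TMM-scaled totals, and levels of different genes are compared in RPKM. p values measure the spread between replicates within the 4 groups, pooled over KO and WT cells. They do not measure the spread between KO populations, of which there is 1. No replicate pair agreed within counting noise, so none was merged. With 2 replicates per group, intervals of fold changes rest on 4 residual degrees of freedom plus those shared across genes.

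The 40 genes, their roles and the further lists were chosen with earlier results of these data known. Per role, library values are given for the genes with the largest and smallest WT response and for those not called, or called against the majority. From the further lists, up to 3 genes with the smallest p in the WT response or interaction and those called against their list's direction were named. Some genes that this rule names are not reported here. PRIM1, PRIM2, BRCA2, ATR and ETAA1 were given their extra values after these were seen. Alternatives were DESeq2 1.42.0 size factors and Wald test, upper-quartile factors, no low-count filter, a replicate block, fits of 4 libraries, limma 3.58.1 on log2(RPKM + 0.1) and log2(RPKM + 1), stricter thresholds and libraries left out.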

Additional observations from a re-analysis of the deposited data

Results flagged for a closer look

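The response to Nutlin-3a differed between the genotypes by the interaction test of edgeR in 37 of the 40 genes, each with a smaller fall or a rise in KO cells. The values below are the difference of the log2 fold changes, KO minus WT, with adjusted p under 0.05 over all tested genes.

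Among the helicase genes it was 1.27 for GINS2, 0.91 for GINS3, 0.60 for CDC45 and 0.53 for GINS1. The clamp loader genes gave 1.11 for RFC4, 1.10 for RFC2, 0.81 for RFC5 and 0.75 for RFC3. For the RPA genes it was 0.74 (RPA2), 0.62 (RPA3) and 0.36 (RPA1). In the polymerase and primase group it ran from 1.74 for PRIM1 and 1.67 for POLE2, over 1.22 for POLD3, 1.05 for POLA1, 0.81 for PRIM2, 0.74 for POLD1 and 0.73 for POLE, to 0.60 for POLD2. FEN1 had 1.02 and LIG1 0.24.

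Nucleotide supply genes had 1.30 (RRM2), 0.65 (TK1), 0.54 (RRM1) and 0.46 (TYMS). Chromatin genes had 1.84 (CHAF1B), 0.79 (SLBP), 0.72 (CHAF1A) and 0.45 (UHRF1). Repair and checkpoint genes had 1.802 (UNG), 1.51 (CLSPN), 1.28 (DTL), 1.21 (EXO1), 0.60 (BRCA1), 0.48 (BLM), 0.38 (FANCI) and 0.27 (FANCD2). The p53 target CDKN1A rose by 5.12 in KO and 5.39 in WT cells. Its difference of -0.27 (SE 0.07, adjusted p = 0.00942) was thus a smaller rise in KO cells.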

How the results depend on the processing

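Over the 5 comparisons and all alternatives, 3752 of 3960 single-gene values kept their call, or lack of one, and where called their direction. Of the others 198 lost the call, 9 gained one and 1 reversed. The losses include those set by the stricter thresholds of 0.01 and 1.5-fold. The reversal was UHRF1, KO against WT under Nutlin-3a, at -0.16 without the 3 libraries named in the report. In WT cells 37 to 39 genes were lower in every setting, in KO cells 33 to 37, and the difference of the responses was called above 0 for 28 to 38 genes and below 0 for none. Counts of genes higher in KO cells under Nutlin-3a against DMSO (2 in all) were 1 when limma-trend was run on unfiltered log2(RPKM + 0.1) values, 1 at adjusted p under 0.01, 0 at a 1.5-fold minimum, and 1 to 2 with single libraries left out. For KO against WT under Nutlin-3a, a 1.5-fold minimum left 18 higher (of 33) and 1 lower (of 3), and without the 3 libraries 6 were lower. For KO against WT under DMSO, 19 were lower (of 30) by limma-trend on filtered and 18 on unfiltered log2(RPKM + 0.1) values, and a 1.5-fold minimum left 3 lower and 1 higher (of 3). The causes were not tested, apart from the higher minimum itself.

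Same-numbered replicates deviated together only weakly (correlations over 15879 genes from -0.0226 to 0.232 between groups), so the numbers were not taken as pairs. With a replicate block, 39 genes were lower in WT and 37 lower and 2 higher in KO cells. KO against WT gave 32 higher and 3 lower under Nutlin-3a and 3 higher and 30 lower under DMSO, and 37 differences of the responses were called. The call lost under Nutlin-3a with the block was that of FANCD2 (adjusted p = 0.0517). Depth limits the least abundant genes most, with 69 reads of CLSPN in the shallowest library.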

Other observations

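The 8 Fanconi genes read outside the 40, compared between the genotypes after their values were seen, did not share a direction. FANCC, of the core complex that ubiquitinates FANCD2 and FANCI, was lower in KO cells under Nutlin-3a (log2 fold change -1.77) and under DMSO (-1.62). FANCL, the ubiquitin ligase subunit of the same complex, was higher in KO cells under both treatments (1.34 and 0.64), as was FANCE (1.17 and 0.46). FANCA was higher in KO cells under Nutlin-3a (0.26) and lower under DMSO (-0.31). FANCG was higher under Nutlin-3a (0.77) and not called under DMSO (-0.01), and FANCB was not called under Nutlin-3a (-0.39) and lower under DMSO (-0.52). FANCM was not called under Nutlin-3a (-0.02) or DMSO (-0.13), nor was FANCF (-0.13 and 0.12).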
